A study of Arabidopsis thaliana with 8 samples.

Results

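The class III peroxidases of Arabidopsis thaliana form a family of 73 genes (PRX1 to PRX73, numbered here in the order of their gene codes). The members described here are 60 of them, taken from a list of gene codes, and all 60 were found among the 36799 genes of the count table. RNA had been sequenced from whole seedlings aged 10 days, in 2 biological replicates for each of 4 groups and 8 libraries in all: enap1-1enap2 Dehydration, enap1-1enap2 Mock, Col-0 Dehydration and Col-0 Mock. Dehydration was 4 h in liquid medium with 25% PEG8000, a polymer that withholds water from the tissue, and Mock was 4 h in the same medium without it. Col-0 is the wild type. In the double mutant enap1-1enap2, ENAP1 carries a deletion made with CRISPR/Cas9 and ENAP2 carries 2 T-DNA insertions in its first exon. Both alleles are in the Col-0 background, and this 1 combination of alleles was studied.

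Class III peroxidases are plant enzymes that carry a heme and are secreted to the cell wall or the vacuole. With hydrogen peroxide as oxidant they join monolignols into lignin, cross-link extensins and stiffen the wall. In another cycle the same enzymes produce reactive oxygen species, which loosen the wall, allow cells to elongate and take part in the burst that follows attack by microbes. Many members are expressed mostly in roots, where some serve the root hairs and others build the Casparian strip, the lignin band that seals the endodermis. Drought is known to change both lignin deposition and the oxygen species of the apoplast.

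The members lay on all 5 chromosomes of the TAIR10 genome, with 12 on chromosome 1, 8 on chromosome 2, 8 on chromosome 3, 11 on chromosome 4 and 21 on chromosome 5. Their predicted proteins had between 310 and 372 residues, and 38 members had 4 coding exons. Several members are tandem copies, which limits what short reads can assign. PRX1 (AT1G05240) and PRX2 (AT1G05250) are neighbours whose coding sequences were identical at all 978 bases, and 54.995% and 100% of their exon windows of 100 bases occurred again in the genome. Reads that fit more than 1 place were not counted, so the 0 to 14 counts of PRX2 per library cannot be read as its expression. PRX1 had 0 to 4 counts per library, and where these reads lie in its exons was not analysed. Repeated windows of 100 bases made up at most 1.07% of the exons of every other member, and 54 members had none. The exons of 9 members overlapped those of a neighbouring gene, most in PRX63 (18.7% of its length) and PRX38 (12.1%), and reads in the overlap were left out because the counting did not use strand.

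Library totals lay between 24007691 and 48279415 counted mates, so that 3 counts, taken as the floor, equalled between 0.0608 and 0.135 CPM (a count set against the size of its library, itself adjusted by a TMM factor). These floors cover counting error only. The replicates of Col-0 Mock differed most, with a biological coefficient of variation of 0.139 against 0.0450 to 0.0923 in the other groups, and where leaving out 1 library moved a count of called genes by over 1.5 times, the count without it is given. ENAP1 was at 3.81 to 12.3 CPM in the enap1-1enap2 libraries and at 13.9 to 24.4 CPM in the Col-0 libraries, and ENAP2 was at 3.10 to 4.93 CPM in enap1-1enap2 and at 7.22 to 9.32 CPM in Col-0. Where the counted reads lie relative to the deletion was not analysed here. The labels call the 2 libraries of a group biological replicates and do not say whether they came from separate cultures, so the p-values measure the spread between these libraries.

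Of the 60 members, 57 passed the filter on low counts and were tested together with all 21614 genes that passed. The other 3 were PRX1, PRX2 and PRX6 (AT1G24110), which had 0 counts in all 8 libraries. The members' summed expression was 2530 and 2461 CPM in enap1-1enap2 under dehydration, against 3924 and 3848 CPM under mock. In Col-0 it was 2203 and 2287 CPM under dehydration, against 3646 and 3806 CPM under mock. In both genotypes the dehydrated libraries were lower and the groups did not overlap. A sum in CPM is a share of all counts, and in whole seedlings fewer cells of a type and less RNA per cell cannot be told apart.

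A few genes carried most of the family. Per kilobase of exon, PRX42 (AT4G21960) had the highest mean over the 8 libraries at 857 CPM per kb. It was followed by PRX34 (188), PRX71 (117), PRX12 (92.9), PRX32 (82.0) and PRX69 (68.3 CPM per kb). In each library its own 6 highest members by CPM held 70.0 to 85.1% of the family's summed CPM. These were not the 6 genes named above in every library, as PRX71 was at 6.82 and 7.14 CPM in dehydrated enap1-1enap2. PRX42 was at 1382 and 1471 CPM in enap1-1enap2 under dehydration, against 1780.3 and 1742 CPM under mock, and at 1252 and 1457 CPM in Col-0 under dehydration, against 1558 and 1893 CPM under mock. Its dehydrated libraries lay below their mock libraries, but the fitted differences stayed under the fold required for a call (log2 fold changes of −0.30 and −0.35). PRX12 (AT1G71695) did not pass the test (log2 fold changes of 0.01 and −0.10). It was at 143 and 139.7 CPM in dehydrated enap1-1enap2, against 143 and 139 CPM under mock, and at 140.4 and 118 CPM in dehydrated Col-0, against 132 and 144 CPM under mock. The 5 members with the largest falls in CPM were taken in each genotype apart. They made up 69.9% of the family's fall in enap1-1enap2 and 65.4% in Col-0. PRX32 was among the 5 in enap1-1enap2 only, and PRX34 in Col-0 only. PRX71 alone accounted for 26.2% of the family's fall in enap1-1enap2 and 14.3% in Col-0, while PRX34 accounted for 1.19% and 13.5%.

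**Figure D1:**
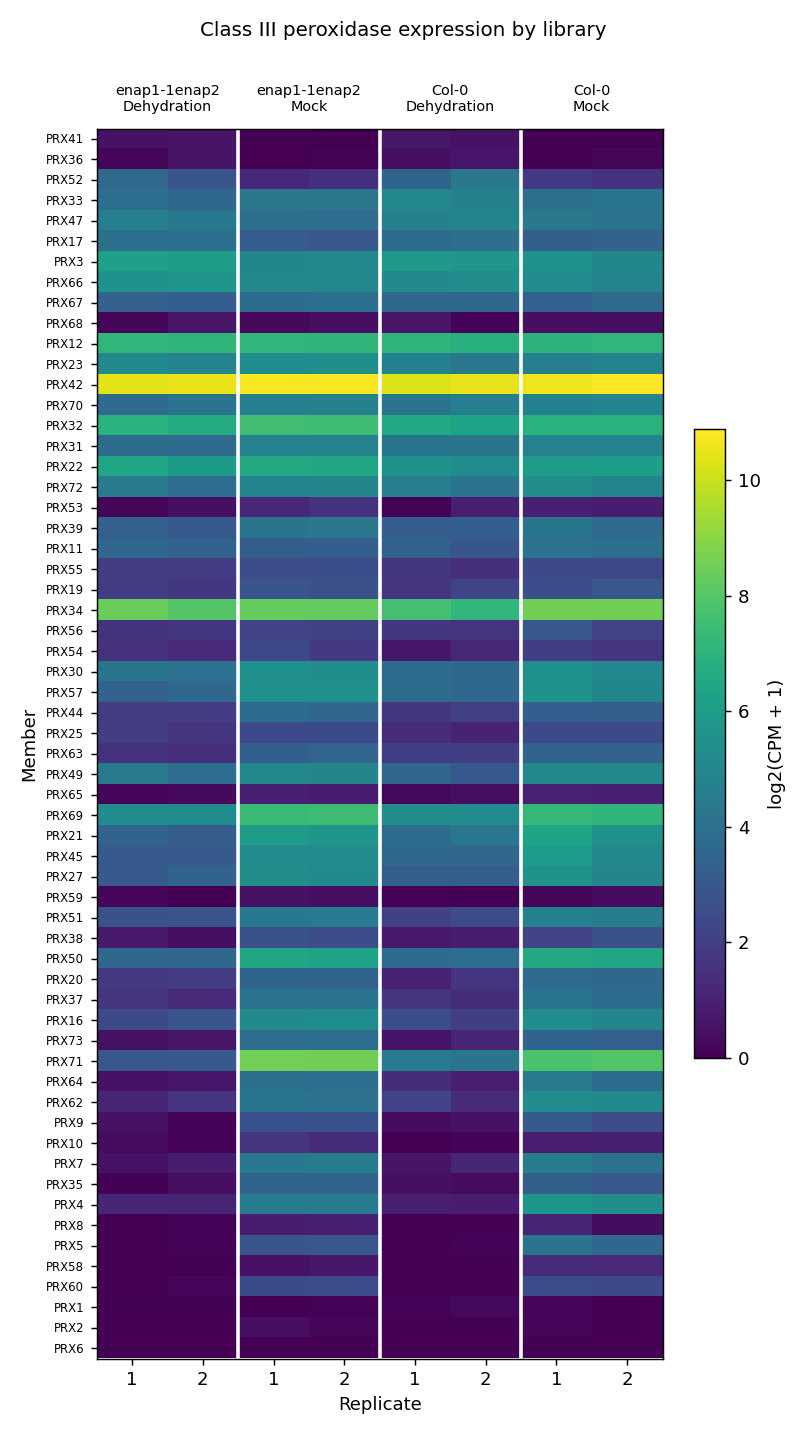
Expression of the 60 members in each library as log2(CPM + 1), with members ordered from the highest to the lowest fitted response to dehydration in Col-0 and the 3 untested members last. The dehydrated libraries are darker than the mock libraries of the same genotype for most members in the lower part, and PRX42 is the brightest row in all 8 libraries.

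Dehydration lowered most of the family in both genotypes. In enap1-1enap2, 32 of the 57 members tested were lower (56.1%), where 14.1% of all tested genes were, and 4 were higher (7.02%), where 12.6% of all tested genes were. In Col-0, 35 members were lower (61.4%), where 11.7% of all tested genes were, and 2 were higher (3.51%), where 10.0% of all tested genes were. To be called in edgeR's quasi-likelihood test a gene had to change by more than 1 on the log2 scale, with p below 0.01 and p below 0.05 once adjusted by Benjamini-Hochberg. The members' median log2 fold change was −1.85 in enap1-1enap2, where that of all tested genes was −0.01, and −1.63 in Col-0, where that of all tested genes was −0.03. With the members that had a group at or under the floor set to their bound, the medians were −1.85 and −1.62. Of the 57 members, 47 lay below 0 in enap1-1enap2 and 48 in Col-0. Without replicate 1 of Col-0 Mock the count of lower members in Col-0 was 30, and without replicate 2 it was 35.

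The genotypes shared most of these calls. There were 29 members lower in both, which is 90.6% of the lower members of enap1-1enap2 and 82.9% of those of Col-0. A further 3 were called in enap1-1enap2 alone and 6 in Col-0 alone, and the response itself differed in 3 of these 9. Without replicate 1 of Col-0 Mock 27 were lower in both, 5 in enap1-1enap2 alone and 3 in Col-0 alone. Those called in enap1-1enap2 alone were also 5 without replicate 1 of Col-0 Dehydration. The counts also differed between levels of mean expression over all libraries. Of the 17 members with a mean of 1 to 10 CPM, 12 were lower in enap1-1enap2 and 16 in Col-0, while of the 7 members with a mean of at least 50 CPM, 2 and 3 were lower. These means include the dehydrated libraries, so a fall itself lowers a member's level. Shares of all genes at these levels were not computed. Under scaling by library size alone the median of all genes moved by −0.17 in enap1-1enap2 and −0.18 in Col-0. Of all genes called in enap1-1enap2, 2153 were then higher and 3757 lower, in place of 2715 and 3048, and in Col-0 1659 were higher and 3286 lower, in place of 2164 and 2535. The members then gave 33 lower and 2 higher in enap1-1enap2, and 37 lower and 2 higher in Col-0.

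**Figure D2:**
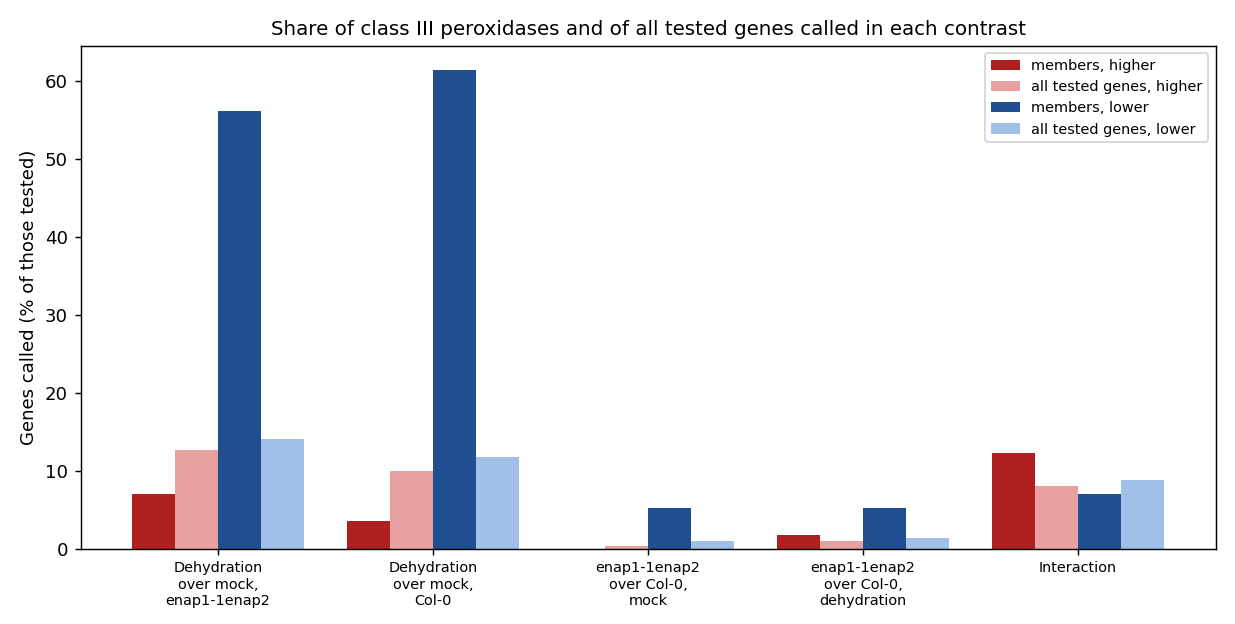
Share of the 57 tested members and of all 21614 tested genes that were called higher or lower in each contrast, in percent of the genes tested. The bars for lower members under dehydration, 56.1% in enap1-1enap2 and 61.4% in Col-0, stand far above the 14.1% and 11.7% of all genes.

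**Figure D3:**
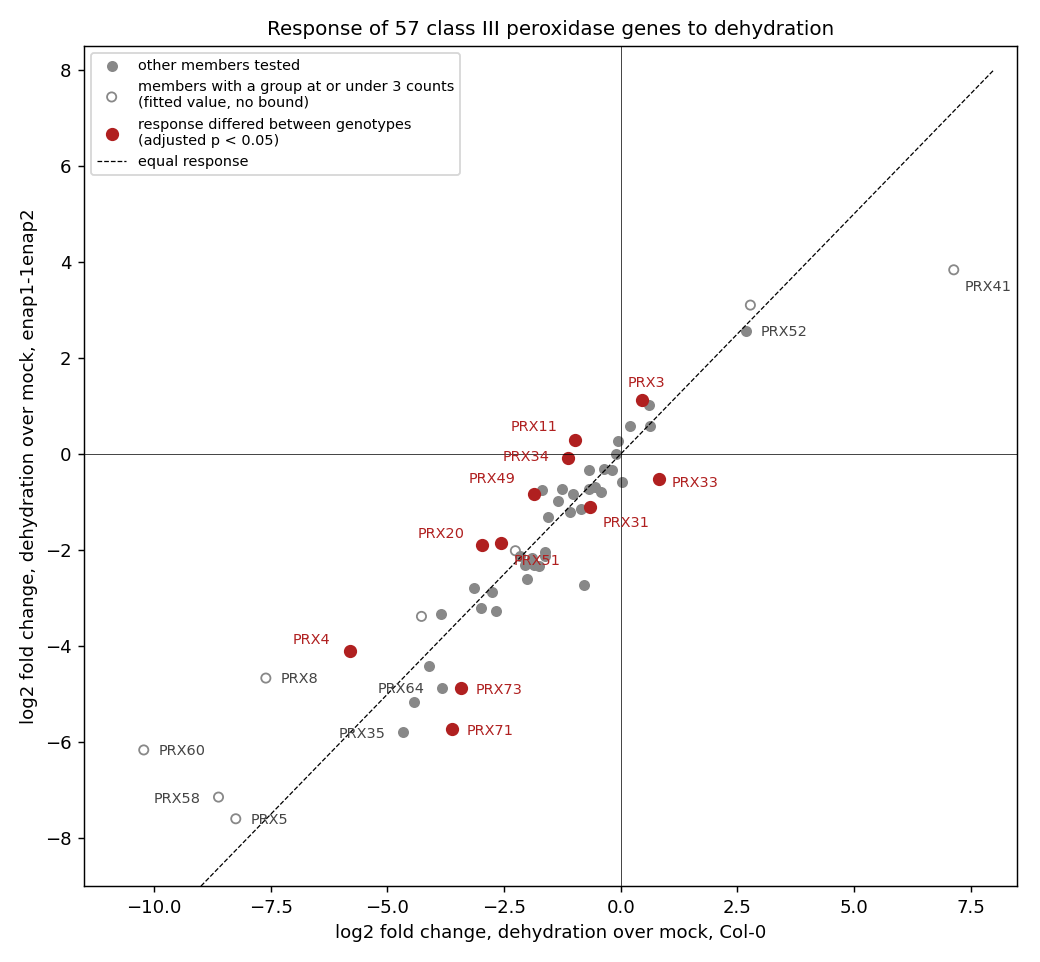
Fitted log2 fold change of dehydration over mock in enap1-1enap2 (vertical axis) and in Col-0 (horizontal axis) for the 57 tested members, each from the libraries of its own genotype. Most points lie below 0 on both axes, open points had a group at or under 3 counts, and the 11 red points are members whose response differed between the genotypes.

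The root hair peroxidases that were tested were lower throughout. PRX1 also belongs to this group of 6, but it did not pass the filter on low counts. PRX44, PRX60, PRX62, PRX69 and PRX73 are known for root hair growth, and all 5 fell in both genotypes, with a median log2 fold change of −3.33 in enap1-1enap2 and −3.42 in Col-0. PRX60 (AT5G22410), a root hair specific gene, was at 0 and 0.141 CPM in dehydrated enap1-1enap2, against 4.52 and 4.66 CPM under mock. In Col-0 it was at 0 in both dehydrated libraries, against 4.65 and 4.34 CPM under mock. Its transcripts were thus at least 34.2-fold lower in Col-0, taken against the floor of 3 counts per library. PRX73 (AT5G67400), which supports root hair elongation, was at 0.414 and 0.563 CPM in dehydrated enap1-1enap2, against 13.9 and 14.4 CPM under mock, and at 0.541 and 1.27 CPM in dehydrated Col-0, against 10.5 and 9.18 CPM under mock. PRX69 (AT5G64100), the most abundant of the 5, was at 37.6 and 38.1 CPM in dehydrated enap1-1enap2, against 167 and 174 CPM under mock. In Col-0 it was at 40.7 and 37.2 CPM under dehydration, against 153 and 138 CPM under mock. The groups of these genes did not overlap. All dehydrated libraries lay below mock for 42.5% of all tested genes in enap1-1enap2 and for 40.5% in Col-0. PRX62 (AT5G39580), which acts with PRX69 in root hair growth in the cold, had log2 fold changes of −3.33 ± 0.26 in enap1-1enap2 and −3.86 ± 0.26 in Col-0 (SE). PRX44 (AT4G26010) had −2.12 ± 0.19 in enap1-1enap2 and −1.63 ± 0.20 in Col-0.

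Genes expressed only in root hair cells often carry a short promoter motif, the root hair element (RHE), which the root hair factor RSL4 is known to bind. The RHE, searched by its published consensus on both strands of the 250 bases before each start site in RefSeq (TAIR10.1), was present in 3 of the 60 members (5%), PRX60, PRX20 and PRX27, and in 0.754% of 27443 protein-coding genes. The root hair peroxidases PRX44, PRX62, PRX69 and PRX73 held no match, and PRX20 and PRX27 are not in the root hair group. Of the 57 tested members 29 were lower in both genotypes, among them PRX60, PRX20 and PRX27. Their promoters are shown because they are the members that hold the motif, which stands in capitals, read 5′ to 3′ on the gene's strand up to the base before the start site.
PRX60, chr5:7426060-7426309, plus strand: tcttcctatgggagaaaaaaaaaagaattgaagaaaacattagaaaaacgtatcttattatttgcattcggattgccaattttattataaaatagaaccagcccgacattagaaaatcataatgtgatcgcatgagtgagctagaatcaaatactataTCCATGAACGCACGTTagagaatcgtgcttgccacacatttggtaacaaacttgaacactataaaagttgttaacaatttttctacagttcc
PRX20, chr2:14892245-14892494, plus strand: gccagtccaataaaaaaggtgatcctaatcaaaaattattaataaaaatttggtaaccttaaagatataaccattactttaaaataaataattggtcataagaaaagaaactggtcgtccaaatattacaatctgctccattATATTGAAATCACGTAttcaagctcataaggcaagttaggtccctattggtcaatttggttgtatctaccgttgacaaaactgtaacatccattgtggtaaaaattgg
PRX27, chr3:68666-68915, minus strand: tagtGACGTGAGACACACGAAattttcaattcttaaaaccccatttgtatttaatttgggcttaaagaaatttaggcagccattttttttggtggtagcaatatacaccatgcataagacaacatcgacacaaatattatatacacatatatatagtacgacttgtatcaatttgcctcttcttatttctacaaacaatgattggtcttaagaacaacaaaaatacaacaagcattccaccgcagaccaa

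The match began 92 bases before the start site in PRX60, 108 in PRX20 and 246 in PRX27, where it lies on the opposite strand. In all 3 it contained the letters ACGTG or their complement, the core of the abscisic acid response element (ABRE). The RHE consensus itself holds CACG followed by A or T, so every match with T there contains this core by construction. The overlap is thus not a separate observation. The ABRE core was found in 35% of the members and in 22.9% of all promoters. PRX20 (AT2G35380) was at 2.64 and 2.81 CPM in dehydrated enap1-1enap2, against 10.2 and 9.92 CPM under mock, and at 0.992 and 2.12 CPM in dehydrated Col-0, against 12.9 and 11.7 CPM under mock. PRX27 (AT3G01190) was at 7.34 and 10.3 CPM in dehydrated enap1-1enap2, against 40.5 and 35.1 CPM under mock, and at 8.75 and 8.405 CPM in dehydrated Col-0, against 46.6 and 29.996 CPM under mock. A match of letters is a description of these windows and not a measured binding site.

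The Casparian strip peroxidases did not move as a block. PRX3, PRX9, PRX39, PRX64 and PRX72 together polymerize lignin in the endodermis. Of the 5, 3 were lower and 1 was higher in enap1-1enap2 (median log2 fold change −1.15), and 2 were lower in Col-0 (median −0.86). PRX64 (AT5G42180) was at 0.465 and 0.563 CPM in dehydrated enap1-1enap2, against 14.999 and 14.8 CPM under mock, and at 1.62 and 0.891 CPM in dehydrated Col-0, against 21.9 and 13.6 CPM under mock. PRX9 (AT1G44970), which also cross-links extensins in anthers, fell with log2 fold changes of −4.40 ± 0.44 in enap1-1enap2 and −4.10 ± 0.45 in Col-0. PRX3 (AT1G05260), known as RCI3 for its induction in the cold, went the other way. It was at 69.1 and 66.7 CPM in dehydrated enap1-1enap2, against 30.5 and 31.8 CPM under mock, a log2 fold change of 1.12 ± 0.15 (adjusted p = 6.1e-06). The Col-0 libraries were at 57.1 and 49.7 CPM under dehydration, against 47.4 and 30.7 CPM under mock, and was not called (0.46 ± 0.15). PRX39 (AT4G11290) was called in enap1-1enap2 alone (−1.15 ± 0.17, with −0.86 ± 0.18 in Col-0), and PRX72 (AT5G66390) in neither (−0.73 and −0.69). The call of PRX39 was lost without replicate 2 of enap1-1enap2 Dehydration (−0.98), and that of PRX3 under scaling by upper quartile factors or library size (0.96 each).

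The peroxidases linked to lignin of stem and xylem moved in both directions. Of the 7 tested, 2 were lower and 2 higher in enap1-1enap2 (median log2 fold change 0.59), and 2 lower and 1 higher in Col-0 (median 0.21). PRX71 (AT5G64120), which is known for lignin in stems and after damage to the wall, was at 6.82 and 7.14 CPM in dehydrated enap1-1enap2, against 377 and 366 CPM under mock. Col-0 seedlings had it at 21.0 and 17.1 CPM under dehydration, against 217 and 246 CPM under mock. The log2 fold changes were −5.74 ± 0.12 (adjusted p = 9.4e-15) and −3.60 ± 0.11 (adjusted p = 5.2e-13). PRX52 (AT5G05340), which acts in the lignin of interfascicular fibres, was at 12.5 and 6.40 CPM in dehydrated enap1-1enap2, against 1.42 and 1.83 CPM under mock. In Col-0 it was at 10.5 and 18.7 CPM under dehydration, against 2.58 and 1.99 CPM under mock. It rose in both genotypes (2.57 ± 0.34 and 2.68 ± 0.32), and its groups did not overlap although the dehydrated replicates differed. All dehydrated libraries lay above mock for 41.9% of all tested genes in enap1-1enap2 and for 38.4% in Col-0.

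PRX17 (AT2G22420), expressed in lignified tissue, was called higher in enap1-1enap2 (1.02 ± 0.14, with 0.60 ± 0.14 in Col-0), just past the fold required, and lost that call with upper quartile factors (0.86), with library size alone (0.85) and without replicate 2 of enap1-1enap2 Mock (0.91). PRX25 (AT2G41480) was lower in Col-0 (−1.69 ± 0.28) and not called in enap1-1enap2 (−0.74 ± 0.25), and PRX53 (AT5G06720) was lower in enap1-1enap2 (−2.73 ± 0.71) with 6 and 10 counts under dehydration, against 55 and 50 under mock. That call of PRX53 was lost without replicate 1 of enap1-1enap2 Dehydration (−2.21) and without replicate 2 of enap1-1enap2 Mock (−2.50). The lower lignin members of enap1-1enap2 were then 1, and without replicate 2 of enap1-1enap2 Mock the higher ones were 1 too. The xylem peroxidases PRX47 (AT4G33420) and PRX66 (AT5G51890) had fold changes of 0.59 each in enap1-1enap2 and of 0.63 and 0.21 in Col-0 on the log2 scale, all under the fold required.

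PRX71 and its nearest relative PRX62, with coding sequences 78.1% identical, both held 3 copies of TTGAC, the core of the W-box that WRKY factors bind. Counting both strands, 4 of the 60 members and 3.38% of all promoters held 3 or more copies, while 40% of the members and 44.9% of all promoters held at least 1. PRX71 and PRX62 were chosen because they were called between the genotypes, PRX71 under dehydration and PRX62 under mock. Under mock PRX71 stood higher in enap1-1enap2 and PRX62 lower. Other members with 3 or more copies, and other members called between the genotypes, are not shown. A link between the motif and the genotype was not tested. The promoters of PRX71 and PRX62 are printed with TTGAC or its complement in capitals.
PRX71, chr5:25661008-25661257, minus strand: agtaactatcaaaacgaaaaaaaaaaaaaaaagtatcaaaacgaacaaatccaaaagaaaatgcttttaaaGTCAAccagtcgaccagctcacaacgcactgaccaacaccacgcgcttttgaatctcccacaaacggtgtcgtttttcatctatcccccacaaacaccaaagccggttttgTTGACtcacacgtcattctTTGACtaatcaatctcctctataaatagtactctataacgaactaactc
PRX62, chr5:15849142-15849391, minus strand: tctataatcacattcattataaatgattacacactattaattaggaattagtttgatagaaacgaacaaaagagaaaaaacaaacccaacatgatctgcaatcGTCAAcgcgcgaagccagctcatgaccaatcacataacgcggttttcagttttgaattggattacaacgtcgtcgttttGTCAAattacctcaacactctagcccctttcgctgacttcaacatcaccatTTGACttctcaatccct

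Among the defence peroxidases the flagellin-responsive pair fell in both genotypes, PRX5 to the floor. PRX5 (AT1G14550) was at 0 and 0.0704 CPM in dehydrated enap1-1enap2, against 6.34 and 6.68 CPM under mock, and at 0 and 0.0849 CPM in dehydrated Col-0, against 17.1 and 11.8 CPM under mock. This was at least 71.1-fold lower in enap1-1enap2 and at least 110-fold lower in Col-0, taken against 3 counts per library. Its neighbour PRX4 (AT1G14540) was at 1.24 and 1.20 CPM in dehydrated enap1-1enap2, against 20.7 and 21.4 CPM under mock, and at 0.902 and 0.764 CPM in dehydrated Col-0, against 52.5 and 40.3 CPM under mock. Its log2 fold changes were −4.10 ± 0.17 and −5.80 ± 0.19. The dehydrated libraries of both genes lay far below all mock libraries.

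PRX33 (AT3G49110) and PRX34 (AT3G49120) produce the apoplastic oxidative burst after contact with microbes. They are close neighbours on chromosome 3, with 1 gene between them and coding sequences 90.7% identical. PRX34 was at 334 and 253 CPM in dehydrated enap1-1enap2, against 314 and 305 CPM under mock, where the groups overlapped (log2 fold change −0.08 ± 0.13). The Col-0 libraries were at 196 and 142 CPM under dehydration, against 368 and 371 CPM under mock, and fell (−1.13 ± 0.14, adjusted p = 3.5e-06). Without replicate 2 of Col-0 Dehydration that value was −0.91 and under the fold required. PRX33 was at 14.6 and 11.6 CPM in dehydrated enap1-1enap2, against 18.9 and 19.0 CPM under mock. Col-0 seedlings had it at 31.7 and 26.6 CPM under dehydration, against 15.1 and 17.8 CPM under mock. So PRX33 was lower under dehydration in the mutant and higher in the wild type, with fold changes of −0.53 ± 0.13 and 0.82 ± 0.13 on the log2 scale, both under the fold required for a call.

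Because 2 copies so alike could share reads, the coding stretch of 120 bases in which they differ most is shown, with the 22 bases that differ in capitals. It spans coding bases 55 to 174 of PRX33 and 52 to 171 of PRX34.
PRX33: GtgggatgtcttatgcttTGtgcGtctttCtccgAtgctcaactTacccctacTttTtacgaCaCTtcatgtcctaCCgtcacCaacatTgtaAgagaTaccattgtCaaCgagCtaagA
PRX34: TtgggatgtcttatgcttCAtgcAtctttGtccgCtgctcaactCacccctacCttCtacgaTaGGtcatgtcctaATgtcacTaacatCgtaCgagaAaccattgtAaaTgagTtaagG
Of the exon windows of 31 bases, 11.7% in PRX33 and 12.2% in PRX34 occurred again in the genome, and of those of 100 bases 1.03% and 1.07%. The part that misplaced reads play in the values of PRX33 was not tested.

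Outside the role groups the falls were as broad. PRX35 (AT3G49960), with a coding sequence 78.8% identical to that of PRX73, was at 0.0517 and 0.352 CPM in dehydrated enap1-1enap2, against 10.4 and 10.1 CPM under mock, and at 0.361 and 0.255 CPM in dehydrated Col-0, against 8.82 and 6.85 CPM under mock. PRX7 (AT1G30870) was at 0.465 and 0.774 CPM in dehydrated enap1-1enap2, against 20.2 and 23.5 CPM under mock, and at 0.541 and 1.23 CPM in dehydrated Col-0, against 22.4 and 16.3 CPM under mock. All 4 dehydrated libraries of both genes lay below every mock library. PRX58 (AT5G19880) was at 0 in all 4 dehydrated libraries, which is at least 5.83-fold lower in enap1-1enap2 and at least 11.2-fold lower in Col-0. PRX8 (AT1G34510) was at least 9.44-fold lower in enap1-1enap2 and at least 5.65-fold lower in Col-0, although its 2 Col-0 mock libraries held 46 and 14 counts and the Col-0 call was lost without the first of them (adjusted p = 0.022, p over 0.01). PRX50 (AT4G37520), PRX16 (AT2G18980) and PRX37 (AT4G08770, known for its effect on plant height) fell, with log2 fold changes of −2.88, −2.79 and −3.20 in enap1-1enap2 and of −2.75, −3.14 and −2.996 in Col-0.

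Some of the 35 calls in Col-0 depended on single libraries. PRX54, PRX55, PRX56, PRX65 and PRX8 were no longer called without replicate 1 of Col-0 Mock. PRX19 and PRX65 were no longer called without replicate 2 of Col-0 Mock. PRX19, PRX54 and PRX65 were no longer called without replicate 1 of Col-0 Dehydration, and PRX34, PRX55 and PRX65 without replicate 2 of it. The call of PRX65 was also lost without either enap1-1enap2 Mock library. In enap1-1enap2, PRX65 was no longer called without replicate 1 of Mock or of Dehydration, nor PRX8 without replicate 1 of Dehydration. The only other member called higher was PRX41 (AT4G17690), at 18 and 14 counts in dehydrated enap1-1enap2, against 2 and 0 under mock, and at 14 and 10 counts in dehydrated Col-0, against 0 and 0 under mock. This was at least 5.03-fold higher in enap1-1enap2 and at least 7.59-fold higher in Col-0, and in enap1-1enap2 the call was lost without any 1 of its 4 libraries. PRX36 (AT3G50990), at 5 and 14 counts in dehydrated enap1-1enap2, against 0 and 2 under mock, was not called (adjusted p = 0.064).

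Tandem neighbours gave a further view of how members vary among themselves. In the array PRX69, PRX70 and PRX71 on chromosome 5, the log2 fold changes in enap1-1enap2 were −2.17, −0.78 and −5.74, and in Col-0 −1.91, −0.43 and −3.60. The middle gene PRX70 (AT5G64110) was at 12.9 and 17.4 CPM in dehydrated enap1-1enap2, against 25.3 and 26.7 CPM under mock, and was called in neither genotype. The most similar neighbours that could be counted, PRX37 and PRX38 (93.8% identical), had log2 fold changes of −3.20 and −3.27 in enap1-1enap2 and of −2.996 and −2.68 in Col-0. PRX50 and PRX51 (92.4%) had −2.88 and −1.85 in enap1-1enap2 and −2.75 and −2.57 in Col-0. PRX22 (AT2G38380) and PRX23 (AT2G38390), at 90.6% identity, were called in neither genotype, with values between −0.68 and −0.19.

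Between the genotypes under mock, few members differed. PRX4, PRX5 and PRX62 were lower in enap1-1enap2 (3 of 57, 5.26%), where 0.953% of all tested genes were lower, and none was higher, where 0.389% of all tested genes were. At an unadjusted p under 0.05 in edgeR there were 15 members, 7 of them higher, where 21.5% of all tested genes passed and 10.5% were higher, and DESeq2 called 0 members higher. PRX4 was at 20.7 and 21.4 CPM in enap1-1enap2 and at 52.5 and 40.3 CPM in Col-0, a log2 fold change of −1.14 ± 0.12 (adjusted p = 7.8e-05). PRX62 was at 17.7 and 16.1 CPM in enap1-1enap2 and at 37.4 and 34.0 CPM in Col-0 (−1.08 ± 0.20, adjusted p = 0.0045). PRX5 gave −1.15 ± 0.24 (adjusted p = 0.0096). The enap1-1enap2 mock libraries of these genes all lay below those of Col-0, as they did for 13 of the 57 members and for 26.1% of all tested genes. The fold changes of these 3 genes were close to the limit. Without replicate 1 of Col-0 Mock, PRX4 was at −0.94 and PRX5 at −0.87 and only PRX62 was called. Without replicate 1 or replicate 2 of enap1-1enap2 Mock only PRX4 was called, and DESeq2 did not call PRX62 (adjusted p = 0.19).

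Under dehydration PRX33, PRX64 and PRX71 were lower in enap1-1enap2 (3 of 57, 5.26%), where 1.40% of all tested genes were lower, and PRX49 was higher (1.75%), where 1.01% of all tested genes were. PRX71 was at 6.82 and 7.14 CPM in enap1-1enap2 and at 21.0 and 17.1 CPM in Col-0, a log2 fold change of −1.45 ± 0.12 (adjusted p = 3.5e-06). Under mock the same gene stood the other way, at 377 and 366 CPM in enap1-1enap2 and at 217 and 246 CPM in Col-0 (0.68 ± 0.09, under the fold required). PRX33 was at 14.6 and 11.6 CPM in enap1-1enap2 and at 31.7 and 26.6 CPM in Col-0 (−1.15 ± 0.13, adjusted p = 4.6e-05). The calls for PRX71 and PRX33 held under all 16 refits tried, but neither reached the stricter limit of 1.5 on the log2 scale. PRX49 (AT4G36430) lay on the limit, at 21.5 and 14.1 CPM in enap1-1enap2 and at 10.9 and 6.96 CPM in Col-0 (1.00 ± 0.19). Its value was 0.71 without replicate 2 of Col-0 Dehydration and 0.66 without replicate 1 of enap1-1enap2 Dehydration. The call of PRX64 (−1.29 ± 0.40, adjusted p = 0.043) held under 9 of 16 refits and was lost without replicate 1 of Col-0 Dehydration (−0.81), without either enap1-1enap2 Dehydration library (−1.14 and −1.42) and without either enap1-1enap2 Mock library (−1.29 each).

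The difference of the responses was then tested directly as an interaction. The response to dehydration was higher in enap1-1enap2 for 7 members (PRX3, PRX4, PRX11, PRX20, PRX34, PRX49 and PRX51), where 8.07% of all tested genes had a higher one, and lower for 4 (PRX31, PRX33, PRX71 and PRX73), where 8.76% of all tested genes had a lower one. The members' shares, 12.3% and 7.02%, were near those of all genes. The largest difference was that of PRX71, whose log2 fold change was −5.74 in enap1-1enap2 and −3.60 in Col-0, a difference of −2.13 ± 0.15 (adjusted p = 1.8e-06). PRX33 and PRX34, the neighbours of the oxidative burst, differed in opposite directions (−1.35 ± 0.19, adjusted p = 2.2e-04, and 1.05 ± 0.19, adjusted p = 0.0017). PRX4 had a difference of 1.69 ± 0.30 (adjusted p = 0.0016), in a gene that was already lower in enap1-1enap2 under mock. PRX11 (AT1G68850) was at 11.01 and 9.57 CPM in dehydrated enap1-1enap2, against 8.38 and 8.55 CPM under mock, and at 9.47 and 6.54 CPM in dehydrated Col-0, against 16.0 and 15.3 CPM under mock. Its dehydrated libraries were thus above mock in the mutant and below mock in the wild type, with a difference of 1.26 ± 0.23 (adjusted p = 0.0018).

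These 5 differences, of PRX71, PRX33, PRX34, PRX4 and PRX11, held under all 15 refits. The other 6 were smaller or less certain, with adjusted p between 0.012 and 0.041. Without replicate 1 of Col-0 Mock the counts were 4 higher and 8 lower, and without replicate 2 of it 9 higher and 5 lower. PRX3, PRX20, PRX31 and PRX51 lost their call without replicate 1 of Col-0 Mock, without replicate 1 of Col-0 Dehydration, and without any 1 of the 4 enap1-1enap2 libraries. PRX3 and PRX31 also lost it without replicate 2 of Col-0 Dehydration. PRX31 lost it in 11 of 15 refits in all, among them DESeq2 (adjusted p = 0.064) and the replicate block (adjusted p = 0.055). PRX73, at −1.46 ± 0.44, was at −0.70 without that library, and lost its call too without either enap1-1enap2 Mock library or replicate 1 of enap1-1enap2 Dehydration. PRX49, at 1.04 ± 0.26, was at 0.74 without replicate 2 of Col-0 Dehydration, at 0.69 without replicate 1 of enap1-1enap2 Dehydration and at 0.98 without replicate 2 of enap1-1enap2 Mock.

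**Figure D4:**
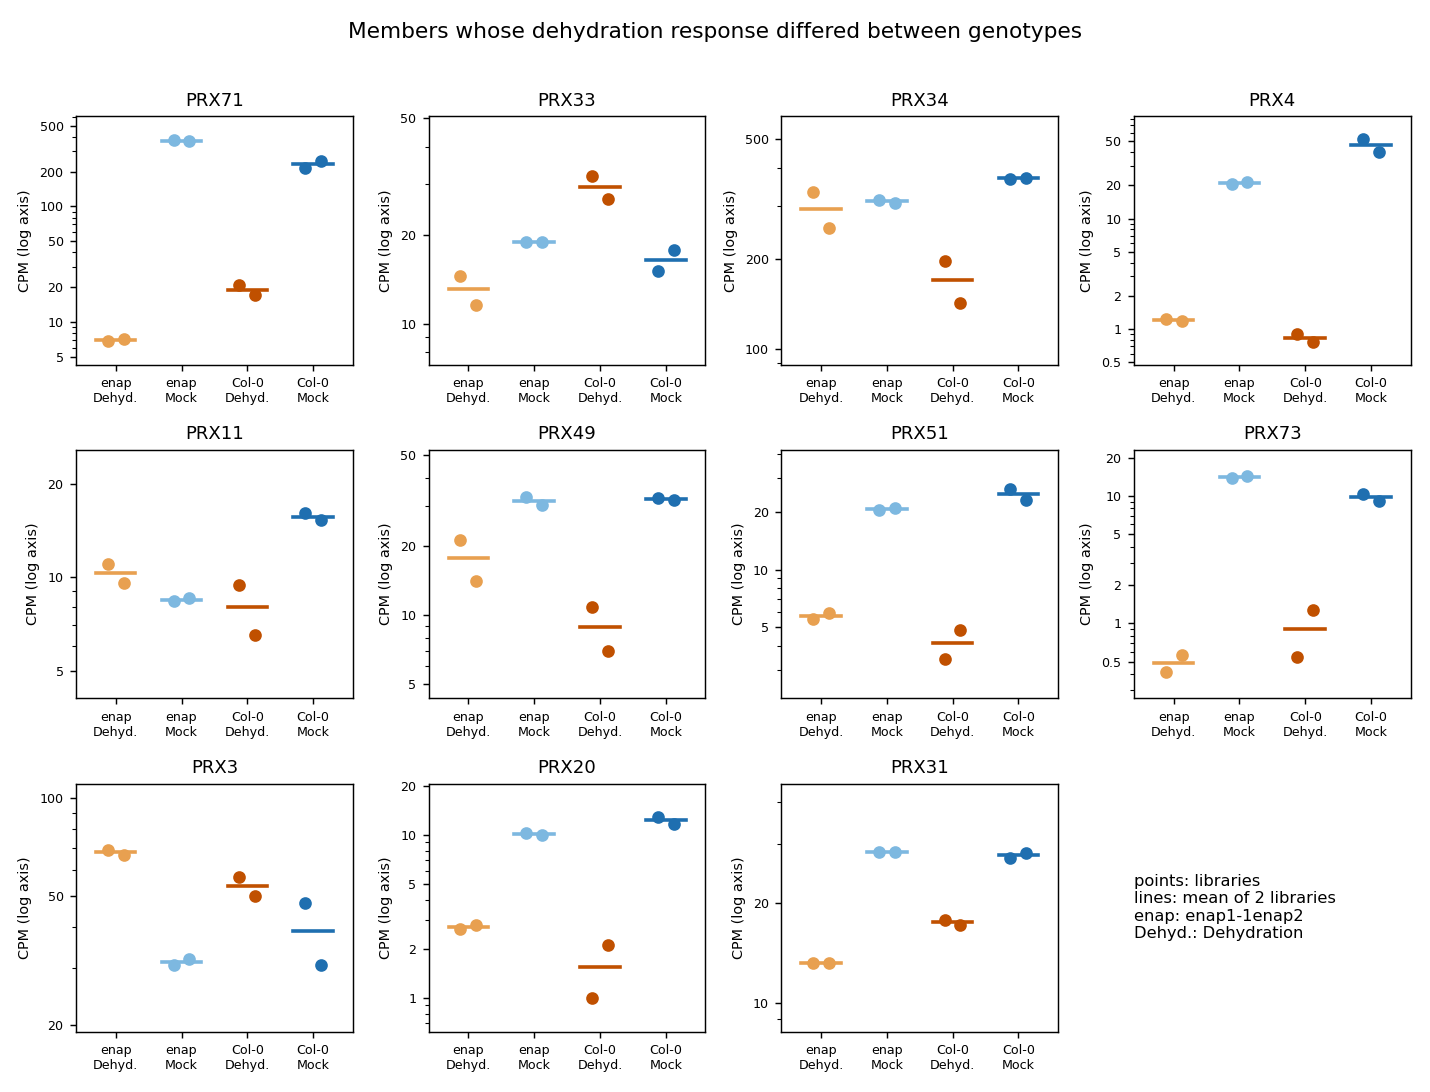
CPM in each library (points, log axis) and the mean of 2 libraries (lines) for the 11 members whose response to dehydration differed between the genotypes. PRX71 is lowest in dehydrated enap1-1enap2, at 6.82 and 7.14 CPM, and highest in enap1-1enap2 under mock, at 377 and 366 CPM.

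Markers of the cell types that use these enzymes were measured in the same libraries, and some moved with the peroxidases. Of 7 root hair markers, 7 were lower under dehydration in enap1-1enap2 and 6 in Col-0, and their summed level was 2.95 and 4.57 CPM in dehydrated enap1-1enap2, against 64.2 and 61.9 CPM under mock. In Col-0 it was 6.95 and 5.86 CPM under dehydration, against 61.9 and 43.9 CPM under mock. The expansin genes EXPA7 and EXPA18 were detected in every mock library, and EXPA18 was at 0 in both dehydrated enap1-1enap2 libraries. Of 7 endodermis markers, which include the CASP genes that form the Casparian strip domain, 4 were lower in enap1-1enap2 and 5 in Col-0. Their sum was 26.7 and 24.9 CPM in dehydrated enap1-1enap2, against 78.5 and 71.1 CPM under mock, and 31.7 and 27.1 CPM in dehydrated Col-0, against 98.4 and 67.4 CPM under mock. Of 5 xylem markers edgeR called 0 in either genotype (2 in enap1-1enap2 and 0 in Col-0 had an unadjusted p under 0.05), and their sums lay between 137 and 176 CPM. In enap1-1enap2 these were 176 and 166 CPM under dehydration, against 148 and 145 CPM under mock, which did not overlap, while in Col-0 they were 142 and 158 CPM, against 174 and 137 CPM, and did. Of 5 root apex markers, 4 were lower and 1 higher in enap1-1enap2, and 1 was lower and 1 higher in Col-0. Their sum was 35.2 and 33.0 CPM in dehydrated enap1-1enap2, against 69.8 and 71.4 CPM under mock, and 41.9 and 42.0 CPM in dehydrated Col-0, against 74.7 and 67.7 CPM under mock. The lower ones in Col-0 were 2 without replicate 2 of Col-0 Mock or replicate 1 of Col-0 Dehydration. The higher one was lost in Col-0 without replicate 1 of Col-0 Mock and in enap1-1enap2 without replicate 1 of enap1-1enap2 Mock. The 7 leaf markers did not move alike, with 5 below 0 and 2 above 0 on the log2 scale in each genotype. Their median log2 fold change was −0.69 in enap1-1enap2 and −0.68 in Col-0. They summed to 15828 and 17155 CPM in dehydrated enap1-1enap2, against 28462 and 28173 CPM under mock, and to 22444 and 21974 CPM in dehydrated Col-0, against 28069.9 and 33961 CPM under mock. The part that the number or state of root hair, endodermis and root apex cells plays in the falls of the peroxidases was not tested.

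**Figure D5:**
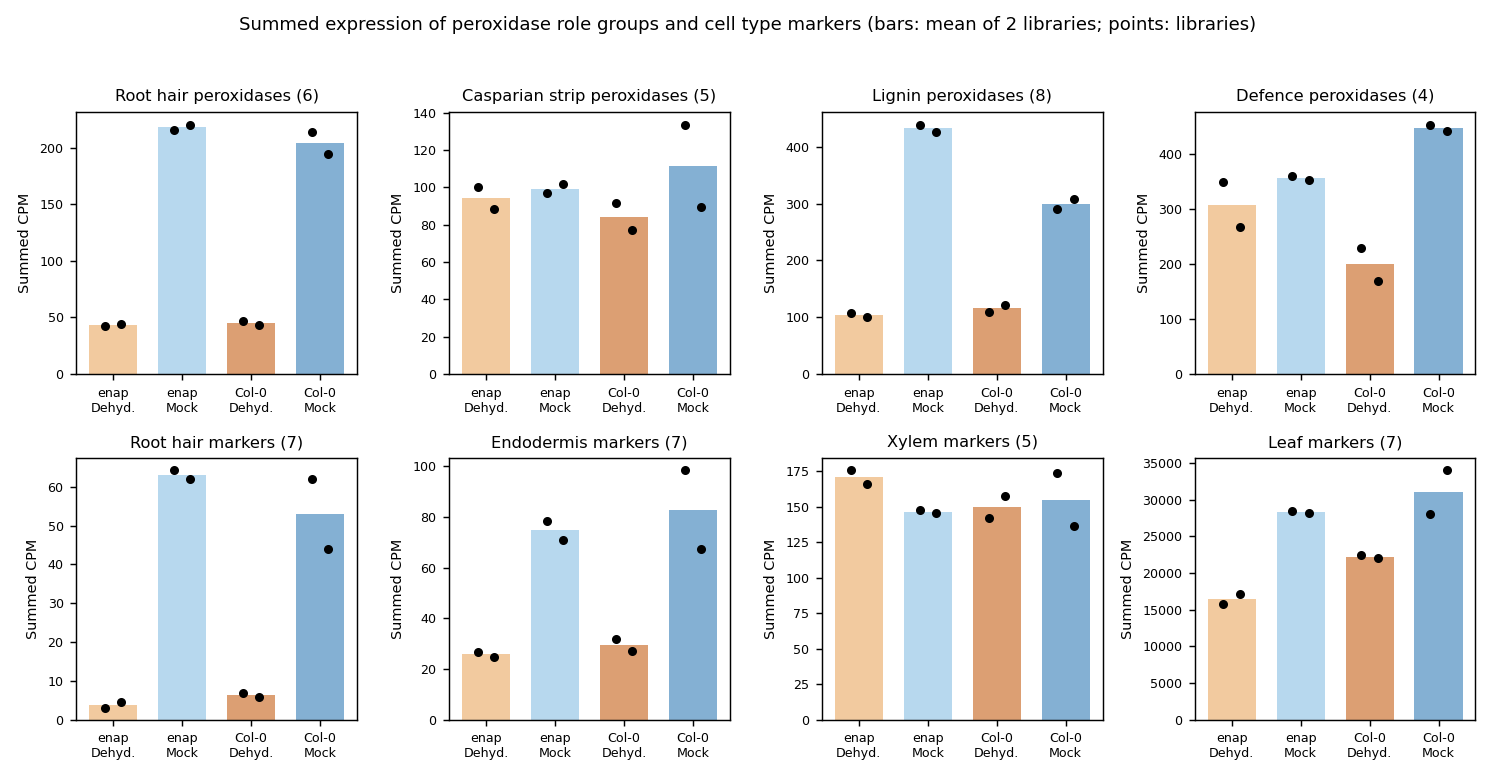
Summed CPM of 4 peroxidase role groups (upper row) and of 4 marker lists (lower row) in each library (points), with bars for the mean of 2 libraries. Root hair peroxidases and root hair markers are both low in the dehydrated libraries of each genotype, while xylem markers stay between 137 and 176 CPM.

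Regulators of peroxidase genes moved too. RSL4, the factor that drives root hair elongation, was at 0 and 0.0704 CPM in dehydrated enap1-1enap2, against 1.83 and 2.82 CPM under mock, and at 0 in both dehydrated Col-0 libraries, against 2.92 and 2.27 CPM under mock. MYB36, which switches on the Casparian strip genes, fell by 1.59 on the log2 scale in enap1-1enap2 and by 1.36 in Col-0. UPB1, a repressor of peroxidase genes at the border of the root's division zone, was at 10.03 and 11.47 CPM in dehydrated enap1-1enap2, against 2.69 and 1.603 CPM under mock, and at 7.22 and 7.30 CPM in dehydrated Col-0, against 5.17 and 3.91 CPM under mock. It rose in enap1-1enap2 (2.29, adjusted p = 4.4e-07), and its response differed between the genotypes by 1.61 (adjusted p = 0.0034). Of all 7 regulators listed, 3 were lower and 1 higher in enap1-1enap2, and 4 were lower in Col-0.

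Other genes of the pathway are read against the shares of all tested genes given above, 14.1% lower and 12.6% higher in enap1-1enap2 and 11.7% lower and 10.0% higher in Col-0. Of 8 tested RBOH oxidases, which supply the superoxide from which peroxide forms, 3 were lower in each genotype. RBOHD, the main oxidase of the stress burst, was at 28.998 and 24.3 CPM in dehydrated enap1-1enap2, against 64.2 and 58.8 CPM under mock, and at 20.4 and 21.1 CPM in dehydrated Col-0, against 63.6 and 54.8 CPM under mock. Of 16 tested laccases, which oxidize monolignols with oxygen in place of peroxide, 6 were lower and 1 higher in enap1-1enap2, and 7 were lower in Col-0, with log2 fold changes of LAC7 of −3.54 in enap1-1enap2 and −3.55 in Col-0. The lower laccases in Col-0 were 4 without replicate 1 of Col-0 Dehydration. Of 18 genes of monolignol synthesis, 6 were lower and 2 higher in enap1-1enap2, and 5 were lower and 2 higher in Col-0. The higher ones in Col-0 were 1 without replicate 2 of Col-0 Mock, and 2 of 18 is near the share of all genes. CAD5, which makes the alcohols that peroxidases polymerize, rose by 2.24 on the log2 scale in enap1-1enap2 and by 1.88 in Col-0. 4CL3, a coumarate ligase known for flavonoid synthesis, had log2 fold changes of −2.46 in enap1-1enap2 and −2.71 in Col-0.

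Of the 13 class III peroxidases outside the 60, 10 were tested. Of these, 3 were lower in enap1-1enap2, and 5 were lower and 1 higher in Col-0. The lower ones in enap1-1enap2 were 1 without replicate 1 of Mock or of Dehydration. PRX15 (AT2G18150) was at 43.5 and 35.5 CPM in dehydrated enap1-1enap2, against 38.2 and 37.6 CPM under mock, and at 12.7 and 6.45 CPM in dehydrated Col-0, against 34.4 and 33.9 CPM under mock. It was called lower in Col-0 and not in enap1-1enap2, and the responses differed by 1.90 (adjusted p = 2.0e-04).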

How the data were processed

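RNA from 8 seedling libraries was measured as counts of reads per gene, which the authors deposited without normalization. Per the labels and the study's methods, reads were trimmed (Trim Galore 0.6.7), mapped to TAIR10 and counted on exons with featureCounts (Subread 2.0.1). The file header shows that mates were counted singly, without strand and without reads of several places, so the mates of a fragment are not independent molecules. The 60 members and all gene lists were chosen with earlier results of these data known.

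Counts were filtered with filterByExpr, scaled with TMM factors and fitted with edgeR 4.0.16 (R 4.3.3) by quasi-likelihood, with all 8 libraries in 1 model and a mean for each group. All p-values were adjusted over 21614 genes by Benjamini-Hochberg. The SE was taken from the log2 fold change and its F statistic (|log2 fold change| / √F). A positive fold change means higher under dehydration, or higher in enap1-1enap2. The interaction was called at an adjusted p under 0.05 alone. Members named with values were the 8 largest called changes per genotype and direction with a mean of at least 1 CPM, up to 8 members called between the genotypes, the role groups and the 6 most abundant. Others (PRX8, PRX16, PRX19, PRX20, PRX22, PRX23, PRX27, PRX31, PRX36, PRX37, PRX38, PRX41, PRX50, PRX54 to PRX56, PRX58, PRX65 and PRX70) were chosen after their values were seen.

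Sequences came from RefSeq (TAIR10.1), in which all 60 members had the start and end of the count table. The steps were tested on simulated data. Alternatives were other scalings, DESeq2 1.42.0, other filters and thresholds, fits on 4 libraries, a block for the replicate number and fits that leave out 1 library.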

Additional observations from a re-analysis of the deposited data

Results flagged for a closer look

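The response to dehydration differed between enap1-1enap2 and Col-0 by the interaction test of edgeR for 11 of the 57 tested members, where 8.07% of all tested genes had a higher and 8.76% a lower response in enap1-1enap2. On the log2 scale the difference of the responses was −2.13 for PRX71, −1.35 for PRX33, −1.46 for PRX73 and −0.44 for PRX31. It was 1.69 for PRX4, 1.26 for PRX11, 1.08 for PRX20, 1.05 for PRX34, 1.04 for PRX49, 0.72 for PRX51 and 0.67 for PRX3. PRX33 and PRX34 share 90.7% of their coding bases and differed in opposite directions. With 2 libraries in each group, no single library could be set apart from the rest of its group.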

How the results depend on the processing

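The counts of members lowered by dehydration, 32 in enap1-1enap2 and 35 in Col-0, stayed within 1.5 times under every alternative run, between 28 and 40 and between 30 and 42. No fold change of a called member changed its direction when 91 calls were refitted (1440 values, the changed fold and p limits apart), and 1348 values kept the call. Members higher in enap1-1enap2 under dehydration (1) were 0 with RLE or upper quartile factors, with DESeq2, with a fold limit of 1.5 on the log2 scale and with the replicate block, 6 with adjusted p alone, and 0 to 3 without single libraries. Members induced in enap1-1enap2 (4) were 2 with upper quartile factors, library size alone or the stricter fold limit, and 2 to 4 without single libraries. Members induced in Col-0 (2) were 1 with a filter of at least 1 CPM in 2 libraries and 6 with adjusted p alone. Members lower in enap1-1enap2 under mock (3) were 0 with the stricter fold limit and 1 to 3 without single libraries, and members higher there (0) were 4 with adjusted p alone. Members lower in enap1-1enap2 under dehydration (3) were 0 with the stricter fold limit and 7 with adjusted p alone. Members with a higher response in enap1-1enap2 (7) were 3 to 9, and those with a lower response (4) were 2 to 8, without single libraries.

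Replicate numbers did not pair the libraries: differences between replicates correlated between −0.063 and 0.076 across groups. The replicate block changed no other count of members by more than 1.5 times. With 2 libraries per group and members such as PRX41 at 0 to 18 counts per library, calls near the limits rest on single libraries. The interaction was not run on 4 libraries or with another fold limit.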
